A study of Mus musculus with 8 samples.

Results

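Transcripts that mark the brain regions around the hypothalamus were measured in pooled hypothalamus RNA from mice that gained much or little weight. The set held 10 genes, chosen by name as markers of the cerebral cortex and hippocampus (Neurod6, Tbr1, Neurod1), of cortex and striatum (Bcl11b), of the striatum (Pde10a, Drd2, Rgs9, Adora2a) and of the thalamus (Tcf7l2, Prkcd). Of the 10, 7 had a probe that the platform annotation assigned to 1 gene alone. Adora2a, Tcf7l2 and Prkcd had none and have no value here, so neither thalamus gene of the set was measured. Each of the 7 had 1 probe, among 33012 probes in all and 14411 that named 1 gene.

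The hypothalamus lies at the base of the forebrain. The thalamus and habenula adjoin it above, the striatum and basal forebrain lie in front and to the side, and the cerebral cortex lies further out. Each of these regions is built under its own set of transcription factors and keeps its own set of signalling genes in the adult, so regional genes can be read as tags of the tissue that entered a dissection. Tbr1 and genes of the Neurod family are switched on as cortical excitatory neurons form. Medium spiny neurons, the main neurons of the striatum, carry dopamine receptors and the enzymes and regulators that act downstream of them. None of these genes is confined to a single region. Drd2 is also known in pituitary lactotrophs and in hypothalamic neurons, Neurod1 in pituitary corticotrophs and cerebellar granule cells, and Tcf7l2 in oligodendrocytes.

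All mice were male C57BL/6J, an inbred strain, and both groups had the same feeding: 6 weeks of high-fat diet, then 2 weeks of low-fat diet, then 6 more weeks of high-fat diet. The labels give no age. High gainers were the mice labelled as gaining much weight on this schedule and low gainers those gaining little, and RNA of 20 mice was combined for each group. Each pool was hybridised to 4 arrays (1-colour Applied Biosystems mouse arrays read by chemiluminescence), so the arrays of a group are technical replicates of 1 pool and every p-value below measures the spread between arrays, not between mice. Because each group was 1 pool, the tissue taken at dissection and the weight gain cannot be told apart. In such bulk RNA, fewer cells of a type and less RNA per cell cannot be told apart either.

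Low gainer array 2 stood apart from the rest before any gene was considered. Its deposited log2 intensities correlated with those of the other 7 arrays at r between 0.228 and 0.253, over the probes each pair shared. The other 7 correlated with each other at r between 0.943 and 0.987, after quantile normalization over the probes with a value on all 7. Values of low gainer array 2 are given apart, and the comparison rested on high gainer arrays 1 to 4 and low gainer arrays 1, 3 and 4. Among those, the low gainer arrays were the less alike, with r between 0.943 and 0.962, against 0.973 to 0.984 within the high gainer pool. Between 13657 and 16873 probes had a value on an array. A value on all 7 arrays was present for 11169 probes (33.8%). Among the probes naming 1 gene it was present for 6332 (43.9%), and for 7 of 7 measured members of the set. Precision is limited by how few arrays there are.

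For the hypothalamus label, 41 genes known from hypothalamic neurons were looked up. Of these, 33 had a probe naming 1 gene and 19 had a value on all 7 arrays, among them Oxt, Avp, Hcrt (the orexin precursor), Npy, Trh and Sim1. Pomc, the precursor of melanocortin peptides, had a value on 5 of the 7. The regional transcription factors Nkx2-1 and Rax had a probe but no value on any of the 7 arrays, as did Esr1 and Ghrh. In the lists for neighbouring regions given below, 21 of 24 striatal genes with a probe had a value on all 7 arrays. The counts were 15 of 23 for cortex and hippocampus and 10 of 15 for thalamus and habenula. Such counts therefore cannot tell the hypothalamus from its neighbours.

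The 7 measured genes lay at different ranks on the arrays, from percentile 36.8 to 91.5. Percentiles are taken among all probes with a value on the same array. Since a probe's signal also depends on how well it binds, they place each probe and do not rank the genes' abundance. Rgs9 (probe 567409) lay between percentiles 88.6 and 91.5 on the 7 arrays, and Tbr1 (probe 331578) between 72.9 and 84.2. Bcl11b (probe 908030) lay between 63.3 and 75.5, Drd2 (probe 694963) between 44.2 and 65.5, and Pde10a (probe 919791) between 36.8 and 72.5. Neurod6 (probe 612748) lay between 43.7 and 63.9, and Neurod1 (probe 704303) between 39.2 and 46.6. All 7 transcripts, cortical ones included, had a value on each of these 7 arrays, and the widest spread of ranks belonged to Pde10a.

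**Figure D1:**
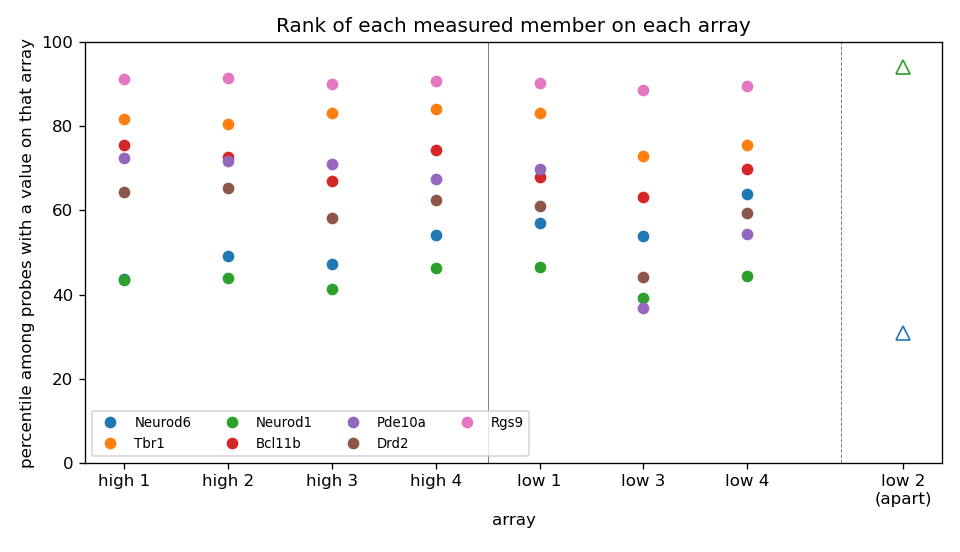
Percentile of each measured gene (vertical axis, 0 to 100, among all probes with a value on that array) on the 4 high gainer and 3 low gainer arrays, with low gainer array 2 as open triangles at the right. Rgs9 stays near percentile 90.4 throughout, while Pde10a drops to 36.8 on low gainer array 3 and Neurod1 stands at 94.2 on low gainer array 2.

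Array 2 of the low gainers had a value for only 2 of the 7 genes. Neurod6 read 0.526 there (percentile 30.7), below its level on the other 7 arrays, and Neurod1 read 17.8 (percentile 94.2), far above its level on the other 7.

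Among the cortical genes, Neurod6 was dimmer in the high gainer pool, Tbr1 leaned the other way, and Neurod1 was level. No difference of the 7 genes passed the adjusted threshold of 0.05 by limma, whose background was 0.0269% of probes tested (3 of 11169). By the looser rule of the study's methods, an unadjusted p under 0.01 with at least a 1.5-fold difference, 2 of the 7 passed with limma's p. Pde10a was higher in high gainers, where 0.457% of all probes passed in that direction, and Neurod6 was lower, where 0.573% passed. With the methods' t-test in place of limma, on the same values, Pde10a did not pass the looser rule and Neurod6 did.

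Neurod6, a helix-loop-helix transcription factor of differentiating and mature cortical and hippocampal pyramidal neurons, had deposited intensities of 0.696, 0.765, 0.792 and 0.846 on high gainer arrays 1 to 4. In the low gainer pool, arrays 1, 3 and 4 gave 1.04, 1.17 and 1.46. Every high gainer array lay below every low gainer array, which held for 2.44% of all probes in the deposited values and for 2.7% after normalization. The means were 0.775 ± 0.0624 (SD, n = 4) and 1.23 ± 0.215 (SD, n = 3), in deposited intensity. In the normalized log2 values the difference was -0.67 with a 95% interval from -1.13 to -0.22, or 1.59-fold lower in high gainers. Its limma p was 0.00686 and its adjusted p 0.750.

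Tbr1, a T-box factor of deep-layer cortical neurons, read 4.49, 3.70, 4.93 and 4.84 on the 4 arrays of the high gainers. Its readings for the low gainers, on arrays 1, 3 and 4, were 4.56, 2.98 and 2.73. Low gainer array 1 sat among the high gainer arrays and the other low gainer arrays lay below all of them, so the pools overlapped. The log2 difference was 0.43 (95% interval -0.02 to 0.87, limma adjusted p = 0.756). Without low gainer array 1 it was 0.66, or 1.58-fold, with a limma adjusted p of 0.0976, where 1.52% of all probes were called. It was 0.36 without low gainer array 3 and 0.26 without low gainer array 4.

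Neurod1, a helix-loop-helix factor of young excitatory neurons, hippocampal granule cells and some endocrine cells, read 0.689, 0.619, 0.641 and 0.608 in the high gainer pool. Arrays 1, 3 and 4 of the low gainer pool gave 0.654, 0.652 and 0.589. The pools overlapped, and the log2 difference was -0.04 (95% interval -0.52 to 0.44, limma adjusted p = 0.986). The limits of the interval correspond to 0.698-fold and 1.35-fold.

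Bcl11b, also called Ctip2, is a zinc-finger factor of cortical projection neurons and of medium spiny neurons. It read 3.04, 2.31, 1.88 and 2.45 in the high gainer pool, and 1.75, 1.81 and 1.99 on arrays 1, 3 and 4 of the low gainer pool. High gainer array 1 was the brightest, and high gainer array 3 fell inside the low gainer range in the deposited values. After quantile normalization all high gainer arrays lay above all low gainer arrays, as they did for 2.07% of all probes. The log2 difference was 0.36 (95% interval -0.05 to 0.78, limma adjusted p = 0.787).

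The 3 striatal genes each had a higher mean in the high gainer pool. The difference was widest for Pde10a, the phosphodiesterase that breaks down cyclic nucleotides in medium spiny neurons, which read 2.52, 2.19, 2.33 and 1.67 in the high gainer pool. The low gainer pool gave 1.94, 0.602 and 0.922 on arrays 1, 3 and 4. Low gainer array 1 lay inside the high gainer range and the other low gainer arrays lay well below it. The means were 2.18 ± 0.365 (SD, n = 4) and 1.16 ± 0.701 (SD, n = 3) in deposited intensity. In the normalized log2 values the difference was 1.04 (95% interval 0.39 to 1.69), or 2.06-fold, with a limma p of 0.00395 and an adjusted p of 0.750.

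The 3 low gainer readings of Pde10a come from the same RNA, yet the highest was 3.23 times the lowest. Their SD on the log2 scale, 0.80, was at percentile 96.6 among all probes tested, whereas the SD of the high gainer readings, 0.26, was at percentile 63.4. Leaving out low gainer array 1 raised the log2 difference to 1.497, or 2.82-fold, and Pde10a then passed with an adjusted p of 0.00940 by limma. It was the only one of the 7 genes to pass in that comparison, in which 1.52% of all probes passed (171 of 11247). Without low gainer array 3 the log2 difference was 0.72 and without low gainer array 4 it was 0.91. The call on Pde10a was therefore decided by 1 array of the low gainer pool.

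Drd2, the inhibitory dopamine receptor of the indirect striatal pathway, read 1.68, 1.59, 1.24 and 1.29 in high gainers, and 1.23, 0.788 and 1.17 on arrays 1, 3 and 4 of the low gainers. All high gainer arrays lay above all low gainer arrays, though high gainer array 3 exceeded low gainer array 1 by little. The log2 difference was 0.43 (95% interval -0.02 to 0.89, limma adjusted p = 0.756).

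Rgs9, a regulator that speeds the shut-off of dopamine receptor signalling, had the highest percentile of the set on every one of the 7 arrays. It read 10.2, 9.45, 9.01 and 9.09 in high gainers, and arrays 1, 3 and 4 of the low gainers gave 8.74, 9.003 and 7.67. The high gainer arrays again all lay above the low gainer arrays, with high gainer array 3 only just above low gainer array 3. The log2 difference was 0.17 (95% interval -0.15 to 0.50, limma adjusted p = 0.873), and the upper bound corresponds to 1.41-fold.

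**Figure D2:**
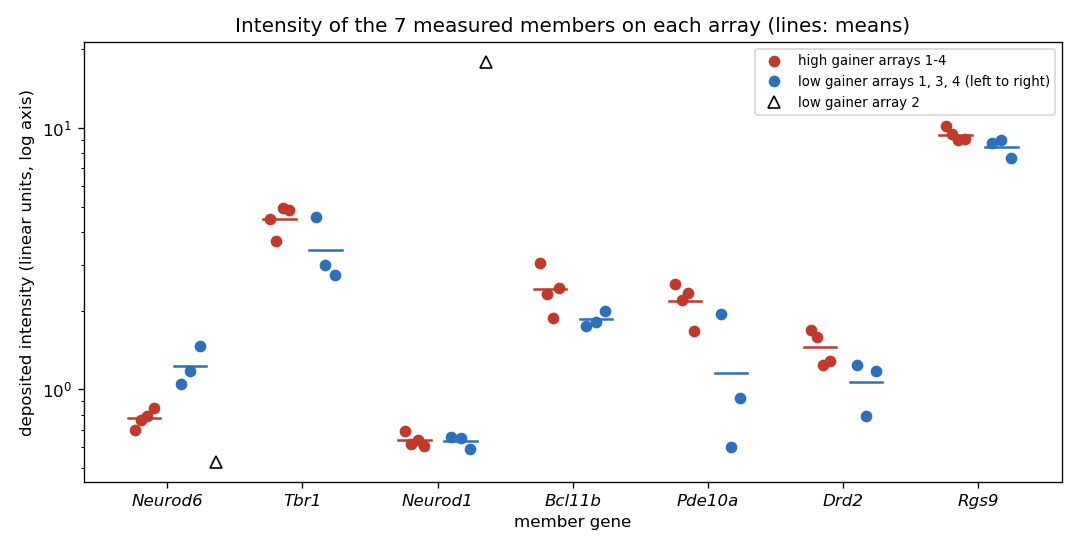
Deposited intensity (vertical axis, linear units on a log axis) of the 7 measured genes on each array, with red points for high gainer arrays 1 to 4, blue points for low gainer arrays 1, 3 and 4, lines at the group means and open triangles for low gainer array 2. The Neurod6 points of the pools do not overlap (0.696 to 0.846 against 1.04 to 1.46), and 1 blue Pde10a point, at 1.94, lies within the red range.

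Over the 7 genes, 5 differences were above 0 and 2 below, with a median log2 difference of 0.36, where the median of all probes tested was -0.0024. In the normalized values, 3 genes (Bcl11b, Drd2, Rgs9) had all high gainer arrays above all low gainer arrays, as did 2.07% of all probes, and 1 (Neurod6) had the reverse, as did 2.7%. In the deposited values the first count was 2, since Bcl11b overlapped, with 1.99% of all probes, and the second was again 1, with 2.44%. An unadjusted limma p under 0.05 was reached by 2 of the 7, Pde10a and Neurod6, and by 724 of 11169 probes.

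**Figure D3:**
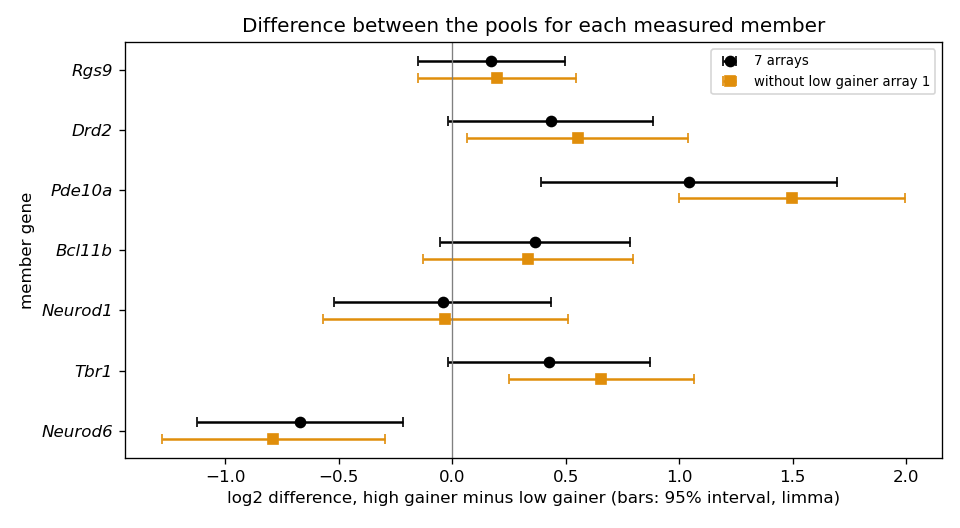
Log2 difference between the pools (horizontal axis, high gainer minus low gainer) with its 95% interval from limma for each measured gene, over 7 arrays (black circles) and without low gainer array 1 (orange squares). Pde10a moves from 1.04 to 1.497 when that array is left out, and only Neurod6 and Pde10a have 7-array intervals that do not reach 0.

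The genes were also set against each other within each array, as the log2 ratio of 2 genes. Such a ratio removes a scaling shared by all probes of the array. These ratios are given as a description, without p-values, and those with Neurod6 share its own separation of the pools. The ratio of Neurod6 to Pde10a was lower in high gainers by a log2 difference of -1.71, to Drd2 by -1.11, to Tbr1 by -1.10 and to Bcl11b by -1.04. Its ratio to Rgs9 differed by -0.84 and to Neurod1 by -0.63. The ratio of Neurod6 to Tbr1, both cortical genes, thus differed between the pools by about as much as the ratio of Neurod6 to the striatal gene Drd2. Tbr1 against Drd2 had a ratio that differed by -0.0072 on the log2 scale, and the pools overlapped.

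The genes whose log2 intensities followed each member most closely over the 7 arrays are given as a description, because the arrays come from 2 pools and a shared difference between pools or a shared odd array raises every such correlation. Among 6331 other probes naming a gene, Pde10a was followed most closely by Adgrg1 (Pearson r = 0.989) and Insig1 (r = 0.984), and 18 had r above 0.95. Drd2 was followed by Zmynd11 (r = 0.989) and Mapk10 (r = 0.988). Tbr1 had the most close companions, with 58 above 0.95, led by Bcl7b (r = 0.998) and Arid1a (r = 0.994). For Neurod6 the closest were H2bc9 (r = 0.965) and Xrcc4 (r = 0.957), and only 3 exceeded 0.95. Bcl11b was followed by Adra2c (r = 0.973) and Limk2 (r = 0.959), Neurod1 by Tmem208 (r = 0.982) and Isg15 (r = 0.973), and Rgs9 by Dpcd (r = 0.980) and Fcho1 (r = 0.9745). No gene of the set was among the 2 closest of another.

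The wider striatal list, 32 genes with the 5 striatal members included, leaned towards the high gainer pool. Of its 24 genes with a probe, 21 had a value on all 7 arrays, and 18 of these had a log2 difference above 0, where 49.6% of all probes did. With median centring, cyclic loess or the deposited values the count was 16 of 21, where 50% to 52.1% of all probes were above 0. The list's median log2 difference was 0.17, and over the 17 genes that are not in the set it was 0.13, with 14 above 0. No gene of the list passed the adjusted threshold. Penk, the enkephalin precursor of the same neurons as Drd2 and also a peptide of the hypothalamus, was the brightest, at 80.8 ± 4.79 (SD, n = 4) in high gainers and 59.7 ± 7.41 (SD, n = 3) in low gainers (log2 difference 0.48, limma adjusted p = 0.750), and its pools did not overlap after normalization.

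Other bright striatal transcripts differed less. Gng7, a G-protein subunit coupled to striatal receptors, had a log2 difference of 0.36 (limma adjusted p = 0.756). Ppp1r1b, which encodes the dopamine-regulated phosphoprotein DARPP-32, had 0.13, and Meis2, a homeobox factor, had 0.07. Arpp21, a cyclic AMP-regulated phosphoprotein, had 0.01. The summed intensity of the 21 genes lay between 211.8 and 227.8 on the high gainer arrays and between 179.4 and 195.7 on the low gainer arrays, with no overlap. Without Penk the sums lay between 128.4 and 152.5 and between 126.6 and 133.2, and overlapped. When each array was left out in turn, the count above 0 ranged from 15 to 19 of 21 and the median from 0.10 to 0.18, with 0.10 without high gainer array 1 and 0.11 without low gainer array 4.

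The cortical and hippocampal list did not lean either way as a group. Of 29 genes, 23 had a probe and 15 a value on all 7 arrays, 10 of them with a difference above 0 and a median of 0.04. Leaving out high gainer array 2 turned that median to -0.03. Its brightest genes outside the set were Cck, a peptide of cortical interneurons and pyramidal cells (log2 difference -0.42, limma adjusted p = 0.750), and Nrgn, the calmodulin-binding protein neurogranin (0.01). Crym, a thyroid hormone-binding protein, had 0.18, and Etv1 and Chn1 each had 0.04. The summed intensity lay between 70.1 and 74.3 on the high gainer arrays and between 73.9 and 78.4 on the low gainer arrays, and overlapped. Cck weighed most in these sums, with a mean of 18.8 in high gainers and 26.0 in low gainers. The sums were not taken without it. Emx2, a cortical patterning gene, had no value on any of the 7 arrays, and Neurod2 had one on 1 of the 7 and Fezf2 on 3. Neurod6 was the only gene of the list past the looser rule.

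The thalamus and habenula list rested on genes outside the set, since its own members had no probe. Of 25 genes, 15 had a probe and 10 a value on all 7 arrays, and 7 of the 10 were above 0, with a median log2 difference of 0.12. The median was -0.05 without low gainer array 3 and 0.25 without low gainer array 4. Zic1, a zinc-finger factor of dorsal midline structures, was the brightest and had a difference of -0.12. Ramp3, a receptor activity-modifying protein, had 0.07, Calb2 (calretinin) had 0.13 and Slc17a6, the vesicular glutamate transporter of thalamic and also of hypothalamic neurons, had 0.24. Tnnt1, a troponin found in thalamic neurons, was below every low gainer array on every high gainer array after normalization (log2 difference -0.45, limma adjusted p = 0.756). Gbx2, a factor that specifies the thalamus, had a value on 6 of the 7 arrays. The summed intensities of the pools overlapped, at 47.3 to 53.0 in high gainers and 46.8 to 56.1 in low gainers.

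The hypothalamic list leaned the opposite way to the striatal one. Of its 19 genes with a value on all 7 arrays, 16 had a difference below 0 and 3 above, with a median log2 difference of -0.23. None passed either rule. The brightest were Sst (somatostatin, -0.07), Resp18 (an endocrine secretory granule protein, -0.42), Nnat (the imprinted gene neuronatin, -0.26), Oxt (oxytocin, -0.27) and Zcchc12 (-0.26). On low gainer array 1 the median deviation of these 19 genes from their own means was -0.09, inside the high gainer range of -0.17 to -0.0047, while low gainer arrays 3 and 4 had 0.18 and 0.27. Low gainer array 1 therefore sat with the high gainer arrays for the hypothalamic list, as it did for Pde10a and Tbr1. The count above 0 ranged from 3 to 6 when each array was left out in turn, and the highest count was found without low gainer array 3 or 4. The median ranged from -0.26 to -0.14, the latter without low gainer array 4.

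**Figure D4:**
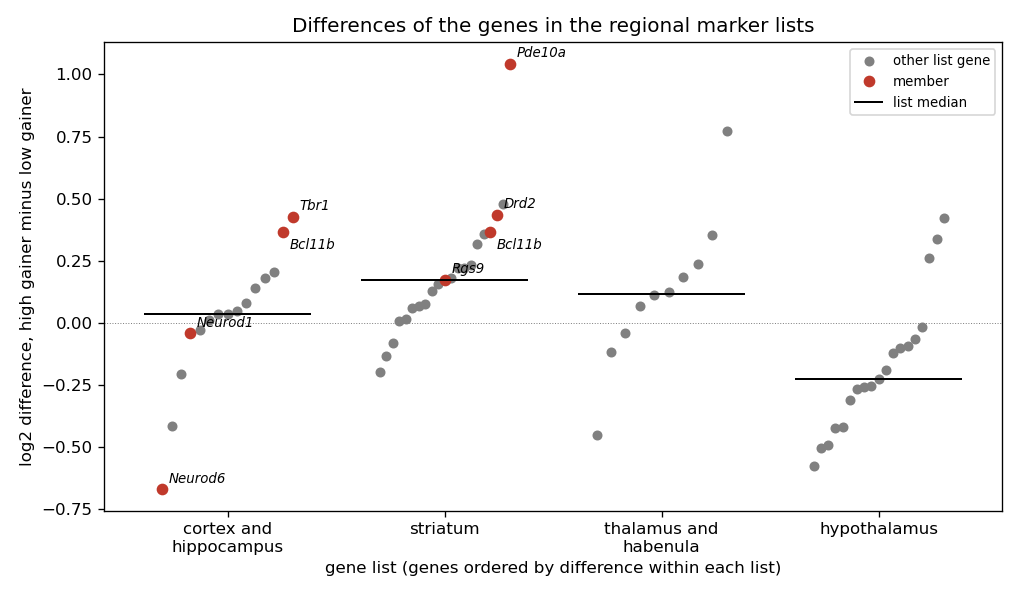
Log2 difference between the pools (vertical axis, high gainer minus low gainer) of each gene with a value on all 7 arrays in 4 regional lists, ordered by difference, with the genes of the set in red and the list median as a line. The striatal median lies at 0.17 and the hypothalamic median at -0.23, while the cortical list holds both Neurod6 at -0.67 and Tbr1 at 0.43.

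Markers of other tissues and cell types are given beside these values. The 3 probes that passed the adjusted threshold among all probes were the pituitary hormone genes Gh, Prl and Cga, which were also the pituitary genes with a value on all 7 arrays, out of 17 listed and 12 with a probe. Gh (growth hormone) was at 5.86 ± 1.04 (SD, n = 4) in high gainers and 0.515 ± 0.0929 (SD, n = 3) in low gainers (11.2-fold, limma adjusted p = 1.4e-06). Prl (prolactin) was 6.35-fold and Cga (the common subunit of glycoprotein hormones) 7.42-fold higher. Their summed intensity lay between 8.30 and 10.4 on the high gainer arrays and between 0.837 and 1.38 on the low gainer arrays, and low gainer array 1 had 0.996. On that array Pde10a and Tbr1 were at high gainer levels while the pituitary hormones were at low gainer levels. When genes with at least 2 values per pool were admitted, 6 pituitary genes were tested. Of these, 4 had a log2 difference above 0 and 2 below, with a median of 1.45. Ghrhr, Trhr and Pitx1 had no value on any of the 7 arrays. Because Drd2 and Neurod1 are also pituitary genes, the pituitary values stand beside theirs, and their part in the difference of Drd2 was not tested.

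The oligodendrocyte list, which bears on tissue that carries fibre tracts, had 8 of 9 genes above 0 with a median log2 difference of 0.28. Both values turned on single arrays, since without low gainer array 3 the count was 5 of 9 and the median 0.10, and without low gainer array 4 they were 9 of 9 and 0.70. Without high gainer array 2 the median was 0.17. Mbp and Mag passed the looser rule, and none passed the adjusted threshold. Its summed intensity varied widely within each pool, from 61.1 to 95.3 in high gainers and from 20.3 to 63.2 in low gainers. Mbp weighed most in these sums, with a mean of 50.2 in high gainers and 26.4 in low gainers. The lowest sum was on low gainer array 3, where Pde10a and Drd2 were lowest too. Low gainer array 4 had the highest sum of its pool, 63.2, while Pde10a read 0.922 there and Drd2 1.17. The part of the oligodendrocyte transcripts in these differences was not tested. Pdgfra had no value on any of the 7 arrays.

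The remaining lists are given by counts, and their medians depended on single arrays. Astrocyte genes had 5 of 8 above 0 (median 0.20), with Sox9 past the looser rule. Microglial genes had 5 of 5 (0.11), endothelial genes 4 of 6 (0.18), and genes of midbrain, hindbrain and cerebellum 5 of 9 (0.10). Choroid plexus genes had 2 of 8 above 0 (median -0.31), and their summed intensity lay between 280.5 and 321.7 in high gainers and between 310.0 and 412.7 in low gainers. Most of these sums came from Ttr alone, with a mean of 285.4 in high gainers and 324.8 in low gainers. The astrocyte median was -0.0090 without low gainer array 1 and 0.11 without low gainer array 3. For midbrain, hindbrain and cerebellum it was -0.04 without high gainer array 3 and -0.07 without low gainer array 4, and leaving out any single array gave -0.07 to 0.16. Leaving out arrays in turn gave 0.025 to 0.19 for microglia (lowest without low gainer array 3), 0.10 to 0.20 for endothelial genes (lowest without low gainer array 3) and -0.33 to -0.17 for choroid plexus (nearest 0 without low gainer array 4). No gene of these lists passed the adjusted threshold.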

How the data were processed

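RNA of 20 high gainers and of 20 low gainers was pooled and each pool was hybridised to 4 arrays. The authors labelled cRNA with digoxigenin, read chemiluminescence with an Applied Biosystems instrument and applied quantile normalization. The deposited values are linear intensities, with many empty cells whose origin is not given in the sources used here. Genes were named from probes annotated to 1 gene (247 probes named several, 18354 were unnamed). The array's genome build is not given in the sources used here.

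Low gainer array 2 was left out. Log2 intensities of the 11169 probes measured on each of the remaining 7 arrays were quantile normalized again and compared with limma 3.58.1 in R 4.3.3 (lmFit, eBayes with trend), Benjamini-Hochberg threshold 0.05. The methods' rule (unadjusted p under 0.01 and 1.5-fold) was applied to limma's p. A list took the brightest probe of each gene. The rule for named genes took all members, the 2 genes most correlated with each, the 5 brightest genes of each regional list and the 3 brightest of the others (the latter given here as counts unless called), plus called genes. Further genes named for a count or for having no value were chosen after their values were seen. Members and lists were chosen with earlier results of these data known. The procedure was tested on simulated data. Alternatives were all 8 arrays, median centring, cyclic loess, deposited values, the brightest 50% of probes and at least 2 values per pool. Others were a pseudocount of 0.186 (the 10th percentile), the replicate number as a block, an unmoderated equal-variance t-test, and leaving out each array.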

Additional observations from a re-analysis of the deposited data

Results flagged for a closer look

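Of 9 groups of 4 arrays in which a measured gene was examined for a single array far from the rest, 1 stood out, and chance flags about 1 in 20 such groups. Neurod1 read 17.8 on low gainer array 2 and between 0.589 and 0.654 on low gainer arrays 1, 3 and 4, so that the gap made up 0.996 of the range. The rate of 1 in 20 is for 4 arrays that behave alike, and low gainer array 2 was already set apart by its low correlations. Neurod6, the other gene with a value on that array, was not far enough from the rest. The low gainer groups of the other 5 genes held 3 arrays and were not examined.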

How the results depend on the processing

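Over all alternatives, 100 recomputed differences of the 7 genes kept their direction and their side of the adjusted threshold, 3 changed sign and 1 gained a call. Neurod1 changed sign with median centring (0.0026), with deposited values (0.017) and when arrays were left out in turn (-0.14 to 0.0405, the upper end without low gainer array 3). Leaving out each array gave 0.72 to 1.497 for Pde10a, with a call at the upper end only (without low gainer array 1, adjusted p = 0.00940), so that 0 to 1 of the 7 genes were called. Over all alternatives the adjusted p of Pde10a ranged from 0.00940 to 0.999. The count of the 7 genes past the looser rule, 2 over 7 arrays, was 0 with all 8 arrays. It was 1 with the brightest 50% of probes, 1 with at least 2 values per pool and 1 with a pseudocount. With the t-test it was 1 (Neurod6, while Pde10a was lost), and it was 0 to 3 when arrays were left out. It was 0 when array 1 of the high gainers or array 3 or 4 of the low gainers was left out, and 3 without low gainer array 1 (Pde10a, Tbr1, Neurod6). With all 8 arrays only Neurod6 (-0.54, adjusted p = 0.717) and Neurod1 (-1.27, or 0.413-fold, adjusted p = 0.717) could be fitted. The list medians were then 0.51 (striatum, 11 genes) and 0.48 (thalamus and habenula, 7 genes). They were -0.90 for midbrain, hindbrain and cerebellum (5 genes) and 0.13 for choroid plexus (7 genes), each a turn of direction. The choroid plexus median also turned with the brightest 50% of probes, at 0.028. With the brightest 50% of probes Neurod6, Neurod1 and Drd2 were not tested.

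With the replicate number as a block, 1 of the 7 genes passed the looser rule (Pde10a, log2 difference 1.05, adjusted p = 0.268) and none the adjusted threshold, while 9 probes in all were called and 176 passed the looser rule, against 3 and 115. The numbers label technical arrays and did not pair them (deviations of same-numbered arrays correlated at -0.20, 0.13 and -0.14). Over all probes, the counts called and past the looser rule were 1 and 3 with all 8 arrays. They were 1 and 54 with the brightest 50%, and 0 and 19 with the t-test. When arrays were left out they were 2 to 171 and 23 to 669, the highest without low gainer array 1. Ranking among the 11169 probes alone lowered every median percentile, for example from 53.9 to 32.2 for Neurod6. No signal of the background was used here, so how far the dim probes lie above it is unknown.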
